A study of Mus musculus with 12 samples.

Results

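The DEAD and DEAH box helicases are proteins that use ATP to open RNA duplexes and to strip proteins from RNA, and they take their names from a run of amino acids in their core. They act at nearly every step in the life of an RNA. DEAH box members such as Dhx16 and Dhx38 drive the spliceosome from one step to the next, DEAD box members such as Ddx39b and Ddx19a carry mRNA out of the nucleus, Ddx3x and Ddx6 act in translation and mRNA storage, a large set serves ribosome assembly, and Ddx58 (RIG-I) senses viral RNA.

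The 53 genes described here are those whose symbol begins with Ddx or Dhx and a digit in both deposited tables of introns, 37 Ddx and 16 Dhx. The rule reads symbols only and no measured value. They stand among 18312 genes with an annotated intron in the table of tissue and first cultures, and 17367 in the table of the later cultures. Ddx26b matched by its symbol alone: the annotation used here calls it Ints6l, a relative of an Integrator subunit, and it is not known as a helicase. Ddx12, Ddx28 and Ddx53 were not analysed here.

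Polyadenylated RNA of wild-type NMRI mice was sequenced in stranded libraries to follow intron retention and its response to neuronal activity. Neocortex came from mice 10 days (P10) or 49 days (P49) after birth. The cultures, prepared from dissociated neocortex of E16.5 embryos and holding several cell types, were kept for 14 days and then left untreated or given 50 uM DRB, a blocker of transcription by RNA polymerase II, for 2 hours. In a second experiment DRB cultures were compared with cultures that received DRB and, for 1 hour, 20 uM bicuculline, which blocks GABA-A receptors and raises network activity. All cultures of the second experiment therefore carried the block. Each of the 6 groups has 2 libraries, and the labels do not say whether these are separate animals or cultures, so a p-value reflects only how these libraries differ, perhaps for technical reasons. The P10 pair shares a tissue code and may come from 1 animal.

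A value counts reads that cross exon-exon junctions, so retained introns are not measured. Libraries held 49643096 to 74092342 such reads among tissue, untreated and first DRB cultures (the first table) and 62416321 to 69857477 among the other cultures (the second table). Helicase genes held 0.542% to 0.701% of them. CPM are read counts scaled by the library's TMM-adjusted total. They are relative: under a block of transcription a higher CPM means a larger share of the remaining spliced RNA. Markers of the labelled tissue were present, and neuron markers (6 genes, summed) were 5463 to 5505 CPM at P10, 10476 to 10502 at P49, 1745 to 1841 in untreated and 3448 to 3543 in DRB cultures. Genes were compared by the quasi-likelihood test of edgeR, Benjamini-Hochberg adjusted over all genes of a table and called at 0.05; "rose", "fell" and "changed" are used for called genes. In bulk RNA, fewer cells of a type and less RNA per cell cannot be told apart.

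A choice of splice site near the end of Ddx17 carries the clearest difference within a helicase gene, and its sequences come first. Ddx17, with its close relative Ddx5, is a cofactor of transcription, splicing and microRNA processing. It lies at chr15:79527736-79546741 (GRCm38, minus strand). In the annotation a 60-base coding exon (chr15:79535957-79536016) is joined either to a proximal last exon or to a distal coding exon. The proximal one (chr15:79531353-79533210) has 44 bases annotated as coding. The distal one, of 243 bases (chr15:79531672-79531914), leads on to another last exon (chr15:79527736-79530517). The distal exon lies within the span of the proximal one, so reads over this choice do not show where a transcript ends. Below, the last 30 bases of the shared exon are in lower case, and capitals mark the coding bases joined to them: all 44 of the proximal exon (chr15:79533167-79533210) and the first 60 of the distal one (chr15:79531855-79531914), both read from GENCODE transcripts.
Ddx17 proximal last exon: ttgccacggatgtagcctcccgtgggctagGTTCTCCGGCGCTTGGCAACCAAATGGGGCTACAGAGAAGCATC
Ddx17 distal exon: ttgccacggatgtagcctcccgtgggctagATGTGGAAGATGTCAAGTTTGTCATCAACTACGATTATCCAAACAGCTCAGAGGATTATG

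The junction to the proximal exon (intron chr15:79533211-79535956, 2746 bases) took 10.2% of 971 reads leaving the shared exon in one untreated library (95% exact binomial interval 8.36% to 12.3%) and 11.0% of 1101 in the other (9.20% to 13.0%). After DRB it took 37.4% of 1619 reads (35.0% to 39.8%) and 41.9% of 1804 (39.6% to 44.2%). The groups did not overlap, and the mean rose from 10.6% ± 0.56 to 39.6% ± 3.2 (SD, n = 2 each), by 29.0 points. These intervals cover counting error only.

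The reads themselves show where the change lies. Proximal reads went from 99 and 121 to 605 and 755, while distal reads (intron chr15:79531915-79535956) were 872 and 980 in untreated and 1014 and 1049 in DRB cultures. Relative to all Ddx17 junctions, the proximal junction rose by 2.46 on the log2 scale (edgeR diffSpliceDGE, adjusted p = 1.6e-30), and the distal one differed by -0.01 (adjusted p = 1.0). The call held under all 7 alternatives run for it, with adjusted p from 1.8e-32 to 2.5e-19.

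The same site differed with age, by less. At P10 the proximal exon took 8.83% of 917 and 7.68% of 859 reads, and at P49 19.2% of 657 and 17.1% of 585. Tissue libraries of the 2 ages thus did not overlap, and the share went from 8.26% ± 0.81 to 18.1% ± 1.5 (SD, n = 2 each), a change of 9.88 points. Both junctions were called (proximal log2 0.88, adjusted p = 2.7e-04; distal -0.42, adjusted p = 0.0080, diffSpliceDGE). These calls rest on few libraries: the proximal one was lost without the first P49 library (adjusted p = 0.058) or the second P10 library (0.11), and the distal one without either P49 library (0.15 and 0.095) or the first P10 library (0.32).

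In the second experiment, where all 4 libraries had DRB, the proximal share was 37.7% and 36.1% with DRB alone and 38.7% and 38.1% with bicuculline. These sit beside the first DRB group and far above untreated cultures, although no untreated library belongs to that table and the 2 tables were not tested against each other. Bicuculline changed neither Ddx17 junction at the threshold.

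**Figure D1:**
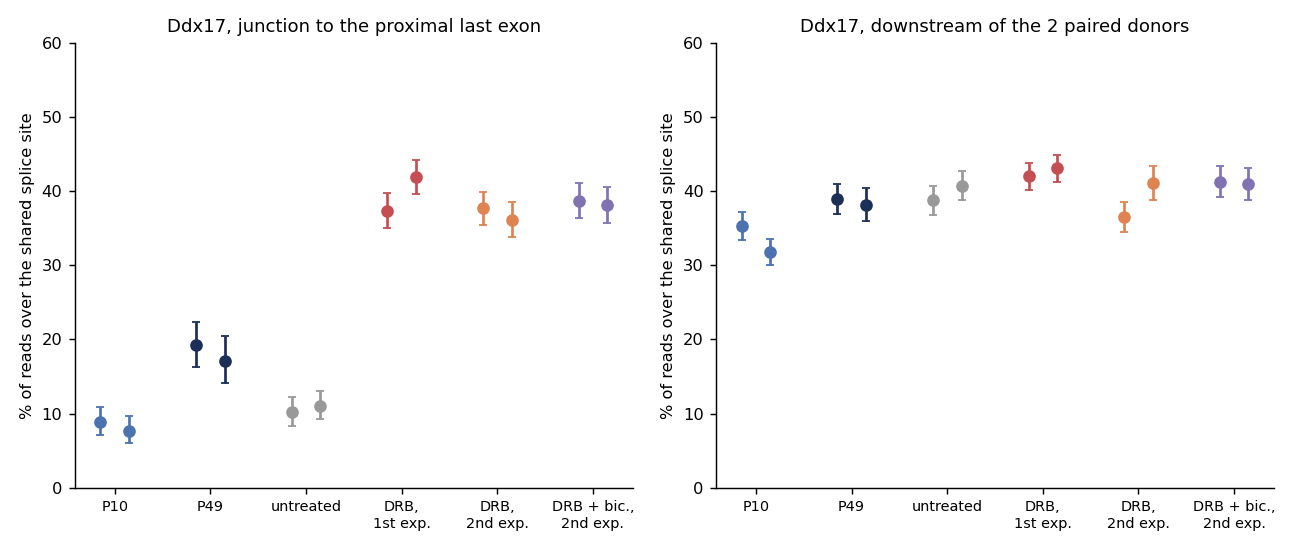
Left, percent of reads leaving the shared Ddx17 exon that join the proximal last exon, and right, percent of reads entering the last distal exon that use the downstream of 2 paired donors, per library (points) with 95% exact binomial intervals (bars), in 6 groups of 2 libraries. On the left the 6 DRB libraries lie between 36.1% and 41.9%, the P49 libraries at 17.1% and 19.2%, and the other 4 between 7.68% and 11.0%.

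A neighbouring choice in Ddx17 moved little. The distal exon ends at either of 2 donors 6 bases apart (chr15:79530518-79531671 and chr15:79530518-79531677), which keeps the reading frame. The downstream donor took 33.5% ± 2.5 of reads at P10, 38.5% ± 0.52 at P49, 39.7% ± 1.4 in untreated and 42.5% ± 0.76 in DRB cultures (SD, n = 2). Neither the difference with age nor that with DRB was called, and junctions of tissue and untreated cultures were not tested against each other.

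Ddx26b held the other pair of called junctions. They flank an exon of 111 bases (chrX:56494133-56494243, plus strand), coding in some of its transcripts. It is printed here because reads on both its sides fell together, and its length is a multiple of 3.
Ddx26b exon: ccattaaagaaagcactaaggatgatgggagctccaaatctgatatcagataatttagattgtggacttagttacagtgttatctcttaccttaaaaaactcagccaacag

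Reads into the exon (chrX:56493134-56494132) were 59 and 55 in untreated and 20 and 15 in DRB cultures, and reads out of it (chrX:56494244-56496515) were 29 and 32 against 2 and 4. No DRB library reached an untreated one. The gene as a whole was slightly higher after DRB, at 67.9 ± 3.15 against 61.8 ± 0.79 CPM. Relative to it, the junctions fell by 1.87 (adjusted p = 9.9e-06) and 3.47 (adjusted p = 3.4e-07, diffSpliceDGE) on the log2 scale. As a share of the gene's mean reads per junction, the exon's entry was 24.8% to 29.0% in untreated cultures, 5.78% to 8.78% after DRB, 14.0% to 15.1% at P10 and 8.62% to 12.2% at P49. In the second table it was 11.2% to 13.8% with DRB alone and 7.32% to 11.4% with bicuculline. Its exit was 14.3% to 14.5% in untreated cultures, 0.878% to 1.54% in the first DRB group and 3.81% to 5.18% in the second. At both entry and exit, then, the groups with DRB alone of the 2 tables did not overlap. Entry reads exceeded exit reads in every library. The junction that skips the exon was not analysed here, so no inclusion level is given.

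**Figure D2:**
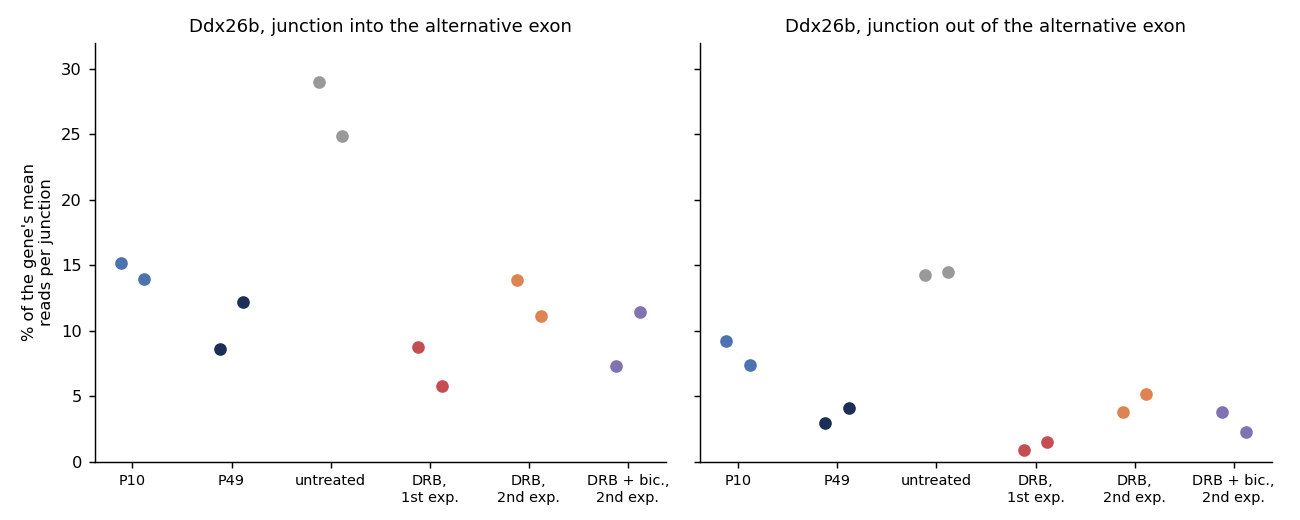
Reads over the junctions into (left) and out of (right) the Ddx26b exon in percent of the gene's mean reads per junction of its principal transcript, per library, in 6 groups of 2. Untreated cultures are highest in both panels, at 24.8% to 29.0% and 14.3% to 14.5%.

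Called junctions were few. Of 857 helicase junctions tested, 4 were called for DRB against untreated cultures (1.65% of all junctions tested were) and 3 for P49 against P10 (1.66%). At a share change of 10 points or more, 1 and 0 remained (0.293% and 0.231% of all). The others were Ddx17 and Ddx26b as above, 1 in Ddx49, a ribosome assembly gene, and 1 in Ddx6. The Ddx49 intron (chr8:70294836-70295366), annotated in a noncoding transcript, had 10 and 14 reads in untreated and 3 and 2 in DRB cultures (adjusted p = 0.018, diffSpliceDGE), and its call was lost when any 1 of the 4 libraries was left out (adjusted p 0.080 to 0.33) and with limma voom (0.067).

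Ddx6, which represses translation and promotes decapping, was called at chr9:44627761-44628640 on 1 library. That junction had 387 reads in one P49 library, 139 in the other and 124 and 163 at P10. Leaving out the high library ended the call (log2 0.06, adjusted p = 1.0), and so did leaving out the first P10 library (adjusted p = 0.17).

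Levels were compared per junction, as the mean CPM over the introns of each gene's principal transcript. Ddx5 led in every group of the first table, at 67.3 CPM per junction (both libraries at P10 between 67.3 and 67.4) and 79.2 in untreated cultures (78.5 to 80.0). Ddx39b, which helps the spliceosome find branch points and then mRNA leave the nucleus, followed at 39.4 and 47.6, and Ddx17 at 24.8 and 35.6. The top 4 genes held 40.4% of the summed level at P10 and 44.05% in untreated cultures. The median helicase gene stood at 3.45 CPM per junction at P10, 3.58 at P49, 3.93 in untreated and 3.39 in DRB cultures.

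Below 1 CPM per junction lay few genes: 46 of 53 were above it at P10 and 47 in untreated cultures. The lowest were Ddx4 (Vasa) and Ddx43, known from the germ line, and the RNA sensors Dhx58 and Ddx60. Ddx43 stood at 0.045 to 0.050 CPM per junction at P10, and Ddx60 at 0.016 to 0.025. Another gene named for the testis, Ddx25, was not low: at 9.64 CPM per junction it ranked 10 of 53 at P10.

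**Figure D3:**
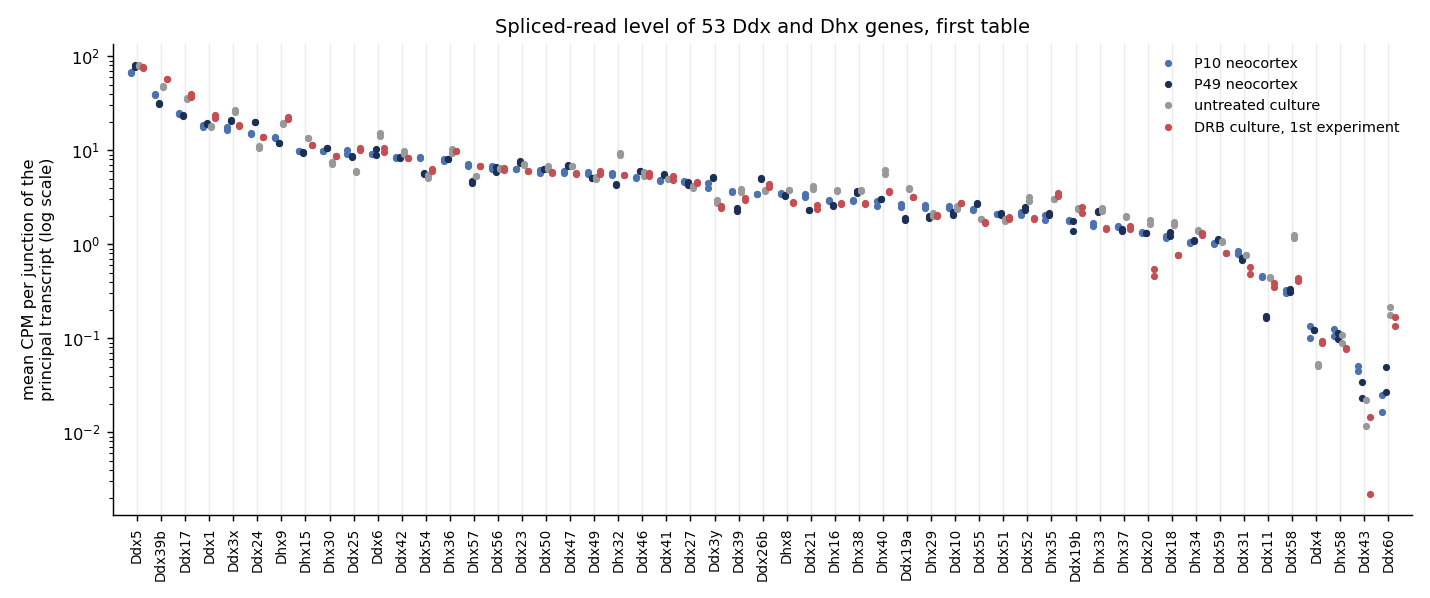
Mean CPM per junction of the principal transcript (log scale) for the 53 genes, ordered by their P10 mean; each point is 1 library of the first table, coloured by group. Levels run from 67.3 for Ddx5 to 0.0207 for Ddx60 at P10.

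DRB was compared with untreated culture to see which spliced helicase RNAs were lost within 2 hours of a transcription block. Of 53 genes 24 fell (45.3%) and 14 rose (26.4%), beside 33.3% and 30% of all 15256 genes tested. Their median log2 change was -0.18, against -0.03 for all genes. The losses were led by Ddx20, Ddx58 and Ddx18, the only ones past 2-fold. Of all 15256 genes, 1748 were called at least 2-fold lower. Of 5 endothelial and mural markers 4 fell and Pecam1 rose, and their sum, mostly Acta2, was 620 to 758 CPM in untreated and 170 to 172 in DRB cultures. All 5 markers of dividing cells fell (summed 297 to 335 against 115 to 120), all 6 neuron markers rose, and the part of these cells in the changes was not tested. In the DRB group of the second experiment, scaled separately, endothelial and mural markers summed to 443 to 532 CPM. Markers of dividing cells summed to 230 to 263 there, and neuron markers to 2859 to 3072.

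Ddx20 (Gemin3), which works with the SMN complex in building spliceosomal snRNPs, was at 18.0 and 16.6 CPM in untreated and 4.65 and 5.49 in DRB cultures. Both DRB libraries lay far below both untreated ones. The log2 change was -1.77 ± 0.10 (SE; adjusted p = 8.5e-08, edgeR), the largest among the 53. Ddx20 lies at chr3:105678270-105687574.

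Of the other RNA processing cofactors, Ddx1, a subunit of the tRNA ligase complex, rose from 447 ± 7.6 to 572 ± 29 CPM (log2 0.36 ± 0.05). Dhx9, which unwinds double-stranded RNA and RNA-DNA hybrids, rose from 512 ± 10 to 591 ± 13. Ddx17 as a whole rose by 0.13 on the log2 scale (adjusted p = 0.021), a call lost without either untreated library or without the second DRB library. Ddx5 stood at 953 ± 13 and 916 ± 14 CPM and was not called (SD, n = 2 each).

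Helicases of the spliceosome mostly fell, 6 of 10, with 2 higher and a median of -0.21. The falls were shallow. Dhx38 (Prp16), which acts between the steps of splicing, went from 96.8 ± 1.0 to 70.9 ± 0.51 CPM, and Dhx8 (Prp22), which releases the spliced mRNA, from 82.6 ± 0.42 to 61.1 ± 0.78. Dhx16 (Prp2), which activates the spliceosome, went from 66.8 ± 0.73 to 48.8 ± 0.76, and Dhx15 (Prp43), which takes it apart, from 176 ± 1.5 to 149 ± 0.99. Both of these were chosen after their values were seen. Ddx39b went the other way, from 477 ± 11 to 576 ± 1.9 CPM (log2 0.27 ± 0.04, adjusted p = 1.4e-04, edgeR). Dhx35, also chosen after its values were seen, was called higher at 0.17, a call lost without either untreated library or the second DRB library. The DRB group of the second experiment was scaled separately and not tested against untreated cultures. There Ddx39b (447 and 444 CPM) and Dhx35 (50.0 and 50.0) lay below untreated cultures, not above, and Dhx15 (175 and 184) was like them. Dhx38 (52.2 and 55.3), Dhx8 (58.8 and 58.4) and Dhx16 (31.9 and 33.9) lay below, as in the first DRB group.

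Ribosome assembly helicases split: 8 of 16 fell and 4 rose, with a median of -0.14. Of the 4, Ddx27 and Ddx49 lost their calls without the first DRB or the first untreated library. Of the 8, Ddx50 lost its call with DESeq2 and without either DRB library or the first untreated one. Ddx18, needed for the large subunit, was at 21.1 and 19.8 CPM in untreated and 9.42 and 9.61 in DRB cultures (log2 -1.11 ± 0.09, SE; adjusted p = 6.4e-07, edgeR). The groups lay far apart. Ddx52 (log2 -0.70 ± 0.07), Ddx21 (-0.68 ± 0.07), a nucleolar protein, and Dhx33 (-0.66 ± 0.08) fell as well. Ddx24 rose, from 84.4 and 88.5 to 112 and 112 CPM (log2 0.37 ± 0.04, adjusted p = 1.7e-05, edgeR). Of the 4 that rose, only Ddx24 (101 and 106 CPM) also lay above untreated cultures in the second DRB group, scaled separately. Ddx54 (64.6 and 66.5), Ddx27 (66.2 and 66.9) and Ddx49 (52.1 and 55.0) lay below them there. Of the 8 that fell, Ddx50 (110 and 109) lay above and the rest lay below. No test was made between that group and untreated cultures.

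Among the 9 genes of mRNA export, translation and decay 5 fell and none rose. Of the 5, Ddx3y lost its call with DESeq2 and without the first DRB or the first untreated library. Ddx3x, a helicase of translation initiation, went from 422 ± 14 to 295 ± 7.2 CPM, and Ddx6 from 194 ± 7.2 to 132 ± 9.4. In the DRB group of the second experiment, scaled separately, Ddx3x was at 300 and 320 CPM and Ddx6 at 177 and 183. Ddx39, a paralog of Ddx39b in mRNA export, fell by 0.29 on the log2 scale (chosen after its values were seen), and the difference between the paralogs was not itself tested.

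The RNA sensor Ddx58 fell from 21.6 and 19.7 to 6.84 and 7.36 CPM (log2 -1.54 ± 0.10, SE; adjusted p = 1.8e-07, edgeR), with no overlap. Ddx60, at 7.07 ± 0.96 and 5.47 ± 0.91 CPM, and Dhx58, at 1.19 ± 0.15 and 0.931 ± 0.018, were not called.

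Of the 3 germ line genes 2, Ddx25 and Ddx4, gave the largest rises. Ddx25 was at 64.0 and 65.8 CPM in untreated and 117 and 110 in DRB cultures (log2 0.81 ± 0.06, SE; adjusted p = 2.9e-07, edgeR), again with no overlap. Ddx4, at 1.08 and 1.21 against 1.82 and 2.07 CPM, rose by 0.76 ± 0.20 (adjusted p = 0.0055, edgeR). Ddx43, at 0.354 and 0.185 against 0.0356 and 0.234 CPM, had a log2 change of -0.95 ± 0.65 and was not called.

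Of the remaining genes, Dhx32 fell from 94.01 ± 3.5 to 55.4 ± 0.56 CPM and Dhx40 from 100.04 ± 5.5 to 62.0 ± 1.5. Dhx57 rose from 112 ± 0.043 to 142 ± 0.26, and Dhx30, which serves the mitochondrial ribosome, from 152 ± 4.6 to 183 ± 0.58. The second DRB group, scaled separately and not tested against untreated cultures, had Dhx57 above them (127 and 128 CPM). Dhx30 (135 and 135) lay below untreated cultures there, not above, and Dhx32 and Dhx40 lay below, as in the first DRB group. For comparison, RNA helicases with other symbols showed 12 of 21 lower and 6 higher, among them Znfx1 (24.1 ± 0.24 to 11.2 ± 0.29 CPM), the splicing helicase Aqr (115 ± 7.2 to 73.0 ± 1.8) and Ifih1 (MDA5), a sensor related to Ddx58 (7.72 ± 0.063 to 2.80 ± 0.16). G-patch proteins, which switch on DEAH box helicases, had 8 of 19 lower and 4 higher.

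**Figure D4:**
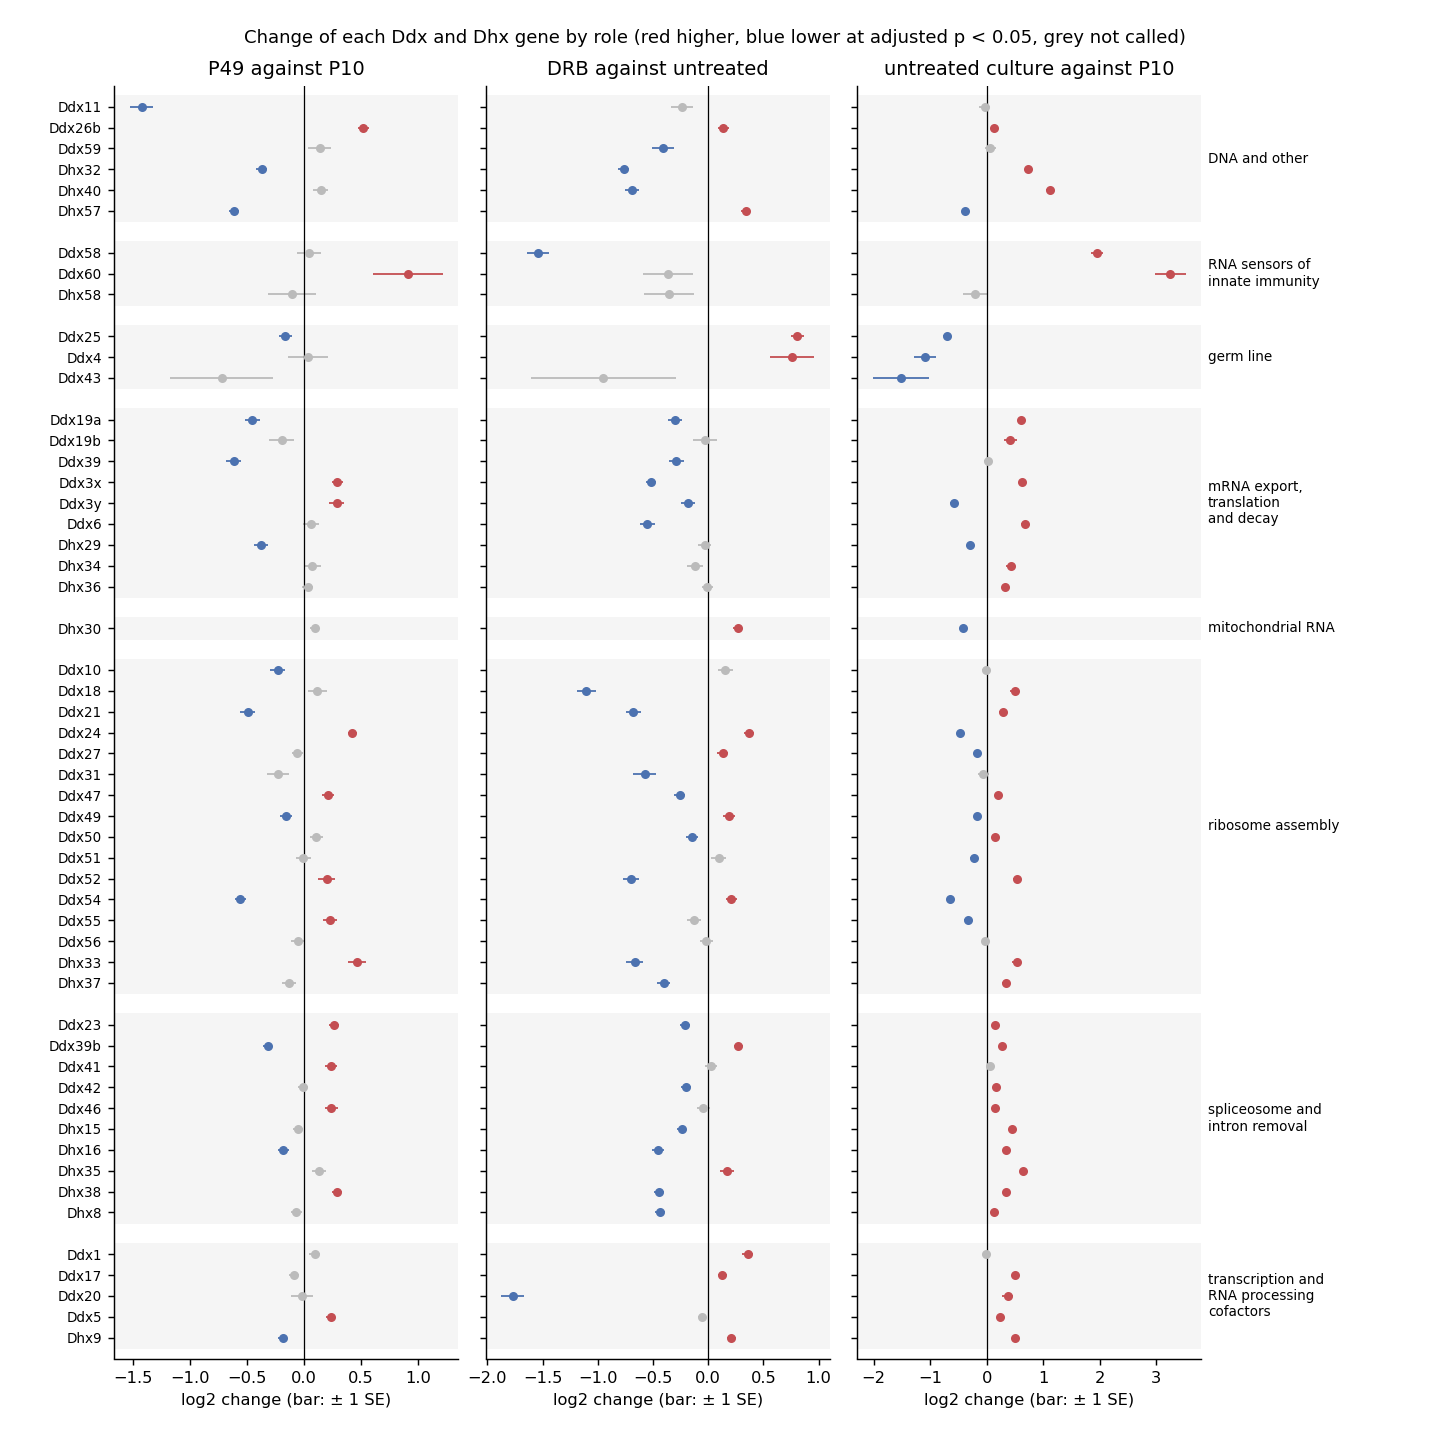
Log2 change of each of the 53 genes (point) with its standard error (bar), grouped by role, for P49 against P10, DRB against untreated culture and untreated culture against P10; red is called higher, blue called lower and grey not called. The largest changes are Ddx11 at -1.42 with age, Ddx20 at -1.77 with DRB and Ddx60 at 3.25 in culture.

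**Figure D5:**
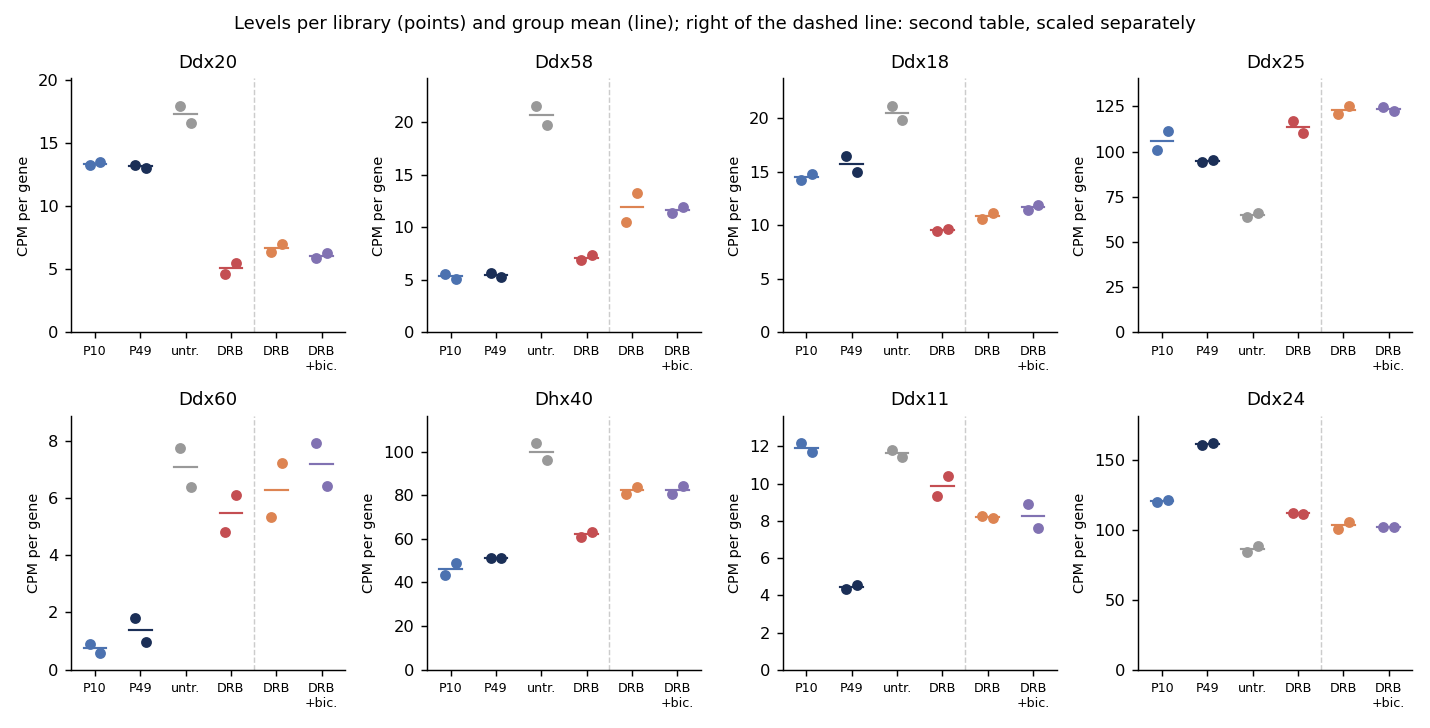
CPM per gene in each of the 12 libraries (points, with the mean as a line) for 8 helicase genes in P10, P49, untreated, DRB, and, right of the dashed line in the separately scaled second table, DRB and DRB with bicuculline. In the first table Ddx20, Ddx58 and Ddx18 are highest in untreated culture (means 17.3, 20.6 and 20.5 CPM), Ddx11 is lowest at P49 (4.45) and Ddx24 highest there (161).

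The ages of the tissue were compared to ask how helicase RNAs differ between developing and adult neocortex. Changes were even and small: 14 of 53 genes rose and 14 fell (26.4% each, beside 28.3% and 29% of all genes), with a median of -0.0062 against -0.0017 for all genes. Only Ddx11 passed 2-fold, where of all 15256 genes 955 were called at least 2-fold higher and 1090 lower. Past 1.5-fold were 4 called helicase genes, a count not taken over all genes. Markers of cell types also differed between the ages. Summed immature neuron markers were 2454 to 2700 CPM at P10 and 590 to 622 at P49. Oligodendrocyte markers summed to 872 to 1019 and 2652 to 2703. The part of these cells in the changes was not tested.

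Ddx11, a DNA helicase of sister chromatid cohesion, was at 12.2 and 11.7 CPM at P10 and 4.36 and 4.55 at P49 (log2 -1.42 ± 0.10, SE; adjusted p = 3.7e-07, edgeR). Both adult libraries lay far below both young ones. All 5 markers of dividing cells fell too, from a summed 67.4 to 70.6 CPM to 19.8 to 23.1, and their part in the result was not tested. In untreated cultures, where those markers summed to 297 to 335, Ddx11 stood at 11.6 ± 0.30 CPM.

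Ddx39 fell from 37.6 and 38.4 CPM to 24.0 and 25.6 (log2 -0.62 ± 0.07, SE; adjusted p = 1.1e-05, edgeR) and Ddx39b by 0.32, from 394 ± 7.6 to 316 ± 9.4. Both export paralogs were thus lower in the adult. Dhx57, whose function is little known, fell from 144 and 150 to 94.5 and 97.6 CPM (log2 -0.61 ± 0.04; adjusted p = 3.7e-07, edgeR). Ddx54 (-0.56 ± 0.05) and Ddx21 (-0.49 ± 0.07), both of ribosome assembly, Ddx19a (-0.45 ± 0.07), which works at the nuclear pore, Dhx29 (-0.37 ± 0.06), which helps ribosomes scan structured leaders, and Dhx32 (-0.37 ± 0.05) fell as well.

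The rises were led by Ddx60, at 0.899 and 0.591 CPM at P10 and 1.79 and 0.974 at P49. Its groups came close, and its call (log2 0.91 ± 0.30, adjusted p = 0.024, edgeR) was lost without the second P10 library, without the first P49 library and in a fit of the 2 ages alone (adjusted p 0.0018 to 0.32 over 8 alternatives). Ddx26b rose from 56.2 and 56.3 to 81.0 and 80.1 CPM (log2 0.52 ± 0.05; adjusted p = 4.1e-06, edgeR), and Dhx33 from 17.3 and 18.6 to 24.6 and 24.8 (0.46 ± 0.08; adjusted p = 3.1e-04, edgeR). For both, every adult library was above every young one. Ddx24 (0.42 ± 0.04), Ddx3x (0.29 ± 0.05), Dhx38 (0.29 ± 0.04), Ddx3y (0.28 ± 0.06) and Ddx23 (Prp28, 0.26 ± 0.04), which prepares the spliceosome for activation, also rose.

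By role, spliceosome helicases had 4 of 10 higher and 2 lower, ribosome assembly 5 of 16 and 4, and export, translation and decay 2 of 9 and 3. Among ribosome assembly genes Ddx10, Ddx49, Ddx52 and Ddx55 lost their calls without the first P49 library, and the spliceosome gene Dhx16 without the second P10 or P49 library. Ddx5 rose from 808 ± 0.46 to 949 ± 18 CPM, while Dhx9 fell by 0.19. Ddx25 fell from 106 ± 7.5 to 94.7 ± 0.51 CPM, a call that was lost when either P49 library or the second P10 library was left out. Dhx30, at 204 ± 1.9 and 217 ± 0.44, and Ddx58, at 5.32 ± 0.29 and 5.47 ± 0.23, were not called. Of other RNA helicases 12 of 21 rose and 4 fell, with Znfx1 from 20.4 ± 0.33 to 44.2 ± 1.1 CPM, and of the translation factors Eif4a1 fell (82.8 ± 5.0 to 56.5 ± 0.32) while Eif4a2 rose (613 ± 7.4 to 786 ± 25).

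Untreated cultures were set beside P10 tissue as the background for the DRB comparison. The comparison shares its untreated libraries with that one and its P10 libraries with the age comparison, so the values are given side by side and not as separate support. Of 53 genes 31 were higher (58.5%) and 13 lower (24.5%) in culture, beside 37.2% and 37.2% of all genes. The median was 0.15, against 0.01 for all genes. Markers of cell types differed as well. Summed oligodendrocyte markers were 60.2 to 73.9 CPM in culture and 872 to 1019 at P10, microglia markers, most of whose sum at P10 is Csf1r, 43.6 to 54.3 and 226 to 239, and dividing cell markers 297 to 335 and 67.4 to 70.6. Neuron markers summed to 1745 to 1841 and 5463 to 5505, with 5 of 6 lower in culture and 1 higher. Astrocyte markers summed to 1561 to 1575 and 638 to 675, and all 5 tested were higher. The part of these cell types in the results was not tested.

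The largest rises were in RNA sensors. Ddx60 was at 0.899 and 0.591 CPM at P10 and 7.75 and 6.39 in untreated cultures (log2 3.25 ± 0.27, SE; adjusted p = 5.1e-07, edgeR), a 9.50-fold difference. Ddx58 was at 5.52 and 5.12 against 21.6 and 19.7 CPM (1.95 ± 0.10; adjusted p = 7.4e-09, edgeR). The third sensor, Dhx58, was near 1 CPM in both and not called. Of 6 markers of microglia, the immune cells of the brain, 4 were lower in the same cultures, with Csf1r at 15.0 ± 2.2 against 174 ± 9.3 CPM, and 2 were higher, C1qa and C1qb.

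Sensor genes are known to be driven by interferon through a response element, and the core of it (GAAA, any 2 bases and GAAA again, searched on both strands) was counted in RefSeq promoters (GRCm38.p6, 250 bases before to 50 after each start). It was in 3.44% of 32851 promoters. Of 58 promoters that matched 47 of the 53 genes, 4 held it, of Ddx60, Ddx58 and, with 2 starts, Ddx49. Ddx60 had it 53 and 19 bases before its start and Ddx58 3 bases after. The third sensor, Dhx58, was not among the genes with a match, and whether its promoter was among the 58 is not stated here. A match is a description of letters, not a site, and a part of interferon in these levels was not tested. The 150 bases before the Ddx60 start (chr8:61927937-61928086, plus strand) are shown with both matches in capitals.
Ddx60 promoter: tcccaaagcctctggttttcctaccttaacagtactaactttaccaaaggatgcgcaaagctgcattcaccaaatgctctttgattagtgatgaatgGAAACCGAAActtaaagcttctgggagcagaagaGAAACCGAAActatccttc

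Dhx40, whose role is little known, went from 43.5 and 48.9 CPM at P10 to 104 and 96.1 in culture (log2 1.11 ± 0.06; adjusted p = 1.7e-08, edgeR), and Dhx32 from 56.3 ± 1.2 to 94.01 ± 3.5. Both fell under DRB. Spliceosome helicases were higher in 9 of 10 cases and lower in none, Dhx35 by 0.65 ± 0.06 and Dhx15 by 0.45 ± 0.04, with a median of 0.22. Of these 9 calls 4 were lost under some of the 8 alternatives, Dhx8 in 7, Ddx46 in 5, and Ddx23 and Ddx42 in 1 each. Leaving out the first untreated library ended the calls of Dhx8, Ddx46 and Ddx42, and leaving out the second those of Dhx8 and Ddx23. Of the cofactors 4 of 5 were higher, Dhx9 and Ddx17 by 0.50 each. In export, translation and decay 6 of 9 were higher, with Ddx6 at 0.68 ± 0.07, Ddx3x at 0.63 ± 0.05 and Ddx19a at 0.61 ± 0.06, and 2 were lower.

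The 3 germ line genes were all lower in culture. Ddx43 was at 0.725 and 0.806 CPM at P10 and 0.354 and 0.185 in culture, a call lost without the second untreated library (adjusted p = 0.15). Ddx4 was at 2.77 and 2.14 against 1.08 and 1.21 (log2 -1.09 ± 0.19; adjusted p = 2.8e-04, edgeR), and Ddx25 at 101 and 111 against 64.0 and 65.8 (-0.71 ± 0.06; adjusted p = 3.1e-07, edgeR). The groups of each gene did not overlap. Ddx54 (-0.65 ± 0.05), Ddx24 (-0.48 ± 0.04), Dhx30 (-0.42 ± 0.04) and Dhx57 (-0.39 ± 0.04) were lower as well.

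Ddx3y, the Y-linked copy of Ddx3x, was lower in culture, at 47.4 and 43.9 CPM against 72.1 and 64.4 at P10 (log2 -0.58 ± 0.07; adjusted p = 7.5e-06, edgeR). Xist, made from the inactive X of females, had 0 reads in all 4 tissue libraries (3 reads, the most that a count of 0 allows, would be 0.0403 to 0.0504 CPM there) and 162 to 165 CPM in untreated cultures. The sex mix of the libraries thus differed between tissue and culture, and its share in the Ddx3x and Ddx3y differences cannot be told apart from that of culture. Near-identical copies such as Ddx3x with Ddx3y and Ddx19a with Ddx19b are also uncertain, since no source used here gives the treatment of multi-mapping reads.

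Bicuculline was compared with DRB alone to look for changes that need no new transcription. No helicase gene was called of 52 tested (edgeR; 1 higher and 0 lower at an unadjusted p under 0.05, and 0 by DESeq2), beside 0.184% of all 14138 genes called higher and 0.0283% lower. Log2 changes ran from -0.21 in Dhx58 to 0.20 in Ddx60, with a median of 0.01. Ddx3y had the smallest p, at 28.7 and 27.0 CPM with DRB and 30.5 and 32.1 with bicuculline (log2 0.17 ± 0.06; adjusted p = 0.87, edgeR). No helicase junction was called of 833 tested (21 at an unadjusted p under 0.05, diffSpliceDGE), beside 0.00217% of all junctions, and 0.000723% with a share change of 10 points or more.

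The abundant members were measured closely there. Ddx5 stood at 1083 and 1080 CPM with DRB and 1076 and 1107 with bicuculline, a log2 change of 0.01 ± 0.03, and Ddx17 at -0.01 ± 0.04. Genes lowered by DRB in the first experiment were at like levels in both groups: Ddx20 at 6.37 and 7.04 against 5.86 and 6.29 CPM, Ddx18 at 10.6 and 11.1 against 11.4 and 11.9, and Ddx58 at 10.5 and 13.3 against 11.4 and 12.0. The groups of Ddx20 and Ddx18 did not overlap but neither gene was called, and those of Ddx58 overlapped.

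Exons that lead to nonsense-mediated decay carried few reads. Of the annotated helicase junctions in the first table, 901 lay in a coding transcript and held 99.8% of reads, and 13 lay only in transcripts annotated for decay, with 0.0847% to 0.109% of reads per library. The most used ones flank an exon of 139 bases in Dhx9 (chr1:153476424-153476562) and one of 59 bases in Ddx39 (chr8:83721466-83721524), neither a multiple of 3.

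In Ddx39 the junction into that exon had 33 to 41 reads at P10, 34 to 42 at P49 and 15 to 16 in untreated cultures. Against the gene's mean reads per junction these were 11.9% to 16.46%, 23.6% to 27.7% and 6.89% to 7.68%. With DRB alone the share was 9.73% to 16.3% in the first experiment and 5.92% to 6.50% in the second. The adult share was thus the highest while the gene's CPM were the lowest of the first table. Neither this junction (adjusted p = 0.31) nor the one out of the exon (0.18) was called with age (diffSpliceDGE). P10 and untreated cultures had like CPM (38.0 ± 0.59 and 38.6 ± 1.9) but shares that did not overlap. In Dhx9 the matching shares were 7.16% to 8.32%, 10.7% to 11.1% and 7.87% to 9.69%, and 9.40% to 10.6% after DRB.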

How the data were processed

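The 53 genes, their role lists and the tests were chosen with earlier results of these data known. Polyadenylated RNA was read as 2 libraries in each of 6 groups. The values are whole-number counts of reads over exon-exon junctions, deposited by the authors in 2 tables; STAR 2.4.0f1 and the mm10 and GRCm38 builds are given per the submitters' processing notes. The treatment of multi-mapping reads is not stated in any source used here. The other 72 columns of per-library values were not used, so intron retention is not reported here.

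Column names carry no replicate numbers of the labels. Elimination among the groups placed the columns of untreated cultures, P49 and the second DRB group, and library numbers only name columns. Some names of the first DRB columns mention TTX; no source used here says whether cultures received it.

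Distinct junctions annotated in GENCODE mouse release 21 were summed per gene, and a read over several junctions counts once at each. Rows without a gene symbol held 0.459% and 0.528% of spliced reads and were left out. Genes were tested with edgeR 4.0.16 (quasi-likelihood, TMM, all groups of a table in 1 fit) and junctions with its diffSpliceDGE, in R 4.3.3, with Benjamini-Hochberg adjustment over the whole table and a threshold of 0.05. The tables were normalised separately. Alternatives were DESeq2 1.42.0, limma 3.58.1 (voom), other filters, every junction with a symbol, fits of the compared groups alone, a replicate block and leaving out each library.

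Named genes are, per comparison, the 8 largest called changes in each direction and the 2 smallest p-values per role list; other genes, and the junctions outside Ddx17 under DRB, were chosen after their values were seen (for DRB also Ddx5, Ddx17, Ddx43 and Dhx58, for age Ddx58, for culture Dhx58, for bicuculline Ddx5, Ddx17, Ddx18 and Ddx58). Tested on simulated data, 2-fold changes were recovered for 78% of genes (P49 against P10), 70% (DRB against untreated), 76% (untreated against P10) and 77% (bicuculline), among 15256 genes and, for bicuculline, 14138; 1.5-fold changes were recovered for 9%, 25%, 13% and 21%. Junctions were recovered less often, among 153159 and, for bicuculline, 139290. For them 2-fold changes were recovered for 33% (P49 against P10), 39% (DRB) and 32% (bicuculline), and 1.5-fold changes for 4%, 1% and 1%. The simulation gave every gene and junction a dispersion of 0.02, which was set and not estimated from these libraries. The rates hold for that spread and do not measure the power of the tests made here.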

Additional observations from a re-analysis of the deposited data

How the results depend on the processing

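No called helicase gene reversed direction. Of called genes, 21 of 28 (P49 against P10), 31 of 38 (DRB against untreated) and 34 of 44 (untreated against P10) kept their call in all 8 alternatives. Counts of called helicase genes stayed within 1.5 times. Counts of called junctions moved. For P49 against P10 (3 called) they ranged from 1, without the first P49 library, to 7, without the second, and those with a share change of 10 points (0) from 0 to 2 (2 without the first P10 library, 1 without the second P49 library), and to 1 with every junction that has a symbol. For DRB (4 called) there were 8 with limma voom, 2 at 10 or more reads in every library and 17 with every junction, 5 of them past 10 points (1 otherwise), and leaving out a library gave 3 each time. Over all junctions, 2506 were called for DRB 1179 to 1427 when a library was left out and 3774 with every junction; past 10 points they were 446, 254 to 274 and 1081. For age, 351 past 10 points became 689 with every junction.

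Between bicuculline and DRB alone, a replicate block on the letters that columns carry gave 0 helicase genes higher and 0 lower, as without it. Over all genes it gave 59 higher and 37 lower, against 26 and 4 without it, and leaving out a library gave 29 to 53 higher and 7 to 35 lower. Without a filter on low counts there were 45 and 22, and by DESeq2 24 and 0. Differences between numbered libraries correlated at 0.0501 over genes, so the letters were not taken to pair the samples. No paired analysis was possible because, in the first table, the column names carry no replicate numbers shared between groups. With 2 libraries a group, changes under 1.5-fold and junctions with few reads are the least certain.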
